A study of Mus musculus with 8 samples.

Results

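Caveolin-1, encoded by Cav1, was compared as absent and present in fibroblasts on a soft substrate: the 2 Cav1KO soft libraries were set against the 2 WT soft libraries, over every listed gene that reached 1 CPM (reads of a gene per 1000000 reads, as scaled by the authors) in at least 2 of the 8 libraries of the study. This rule, which uses levels but not the genotype difference, kept 12494 of 12528 listed genes. The difference on soft was taken between 4 of the 8 libraries. The cells were mouse embryonic fibroblasts (MEFs) that came from WT and Cav1KO littermates and had been immortalized; the knockout is constitutive, the labels give no age, and 1 line per genotype is described, so that a difference between genotypes cannot be told apart from a difference between lines. Cells of both genotypes were seeded at low confluence on fibronectin-coated polyacrylamide hydrogels, of which the soft ones had a stiffness of 0.2 kPa, and RNA was taken after 24 h without any further agent. The same 2 lines on stiff hydrogels of 55 kPa (2 libraries each) gave another reading of the genotype difference that shares no library with the first. The labels do not say that 2 libraries of a group came from separate cultures, so p-values measure only the spread between these libraries, which may be technical.

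Caveolae are small pits of the plasma membrane that are coated by caveolins and, on the cytosolic side, by cavins. They flatten when the membrane is stretched, and caveolin-1 also moves to internal membranes when cells lose firm adhesion. In fibroblasts, caveolin-1 is known for its links to actin stress fibres, matrix remodelling and the transcriptional co-activator YAP, which enters the nucleus on stiff matrices and is mostly cytosolic on soft ones. The comparison therefore asks how the transcriptome differs without caveolin-1 in a setting in which a compliant substrate already keeps tension low.

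Each library held 17089836 to 19944952 reads as recovered from the CPM, which may be rounded estimates of a quantifier. Cav1 was used to check the labels: it stood at 1122 and 1157 CPM in WT and 0.0523 and 0.411 CPM in Cav1KO, which is 1 and 8 reads in Cav1KO. Of the lists of marker genes, the epithelial and endothelial ones had no member among the listed genes, and fibroblast markers summed to 12884 to 14523 CPM in the 4 soft libraries. Of 13 macrophage markers 2 were listed (Cd14 and Cd68, chosen after their values were seen), and they summed to 40.4 and 35.1 CPM in WT and to 92.8 and 94.7 CPM in Cav1KO; the defining markers Ptprc and Csf1r were not listed. The RNA of Xist, which is transcribed from the inactive X chromosome of female cells, was present in both lines at 42.5 and 60.0 CPM in WT and 50.1 and 37.7 CPM in Cav1KO and was not called (adjusted p = 0.401). Throughout, log2 fold changes are Cav1KO minus WT on the log2(CPM + 1) scale, given ± SE with 2 libraries per genotype. Adjusted p-values come from limma with Benjamini-Hochberg adjustment over 12494 genes, and a gene is called at an adjusted p under 0.05. SE and p-values rest on 1 fit of all 8 libraries, so the spread within the stiff groups enters them too.

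Most genes differed between genotypes on soft. Of 12494 genes tested, 3014 were higher in Cav1KO (24.1%) and 3735 were lower (29.9%), 54% in all, and the median log2 fold change over all genes was -0.03. Most differences were small, since 995 genes rose and 956 fell by at least 1 on the log2 scale (7.96% and 7.65% of genes), 246 and 296 by at least 2 (1.97% and 2.37%), and 43 and 72 by at least 4 (0.344% and 0.576%). Counting tests on the recovered reads gave similar numbers, 2946 and 3693 genes with edgeR (23.6% and 29.6%) and 2749 and 3163 with DESeq2 (22% and 25.3%), and 6607 of the 6639 edgeR calls were shared with limma in the same direction. The plot of all genes shows large differences in both directions, from genes near 0 CPM in WT to genes near 0 CPM in Cav1KO.

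**Figure D1:**
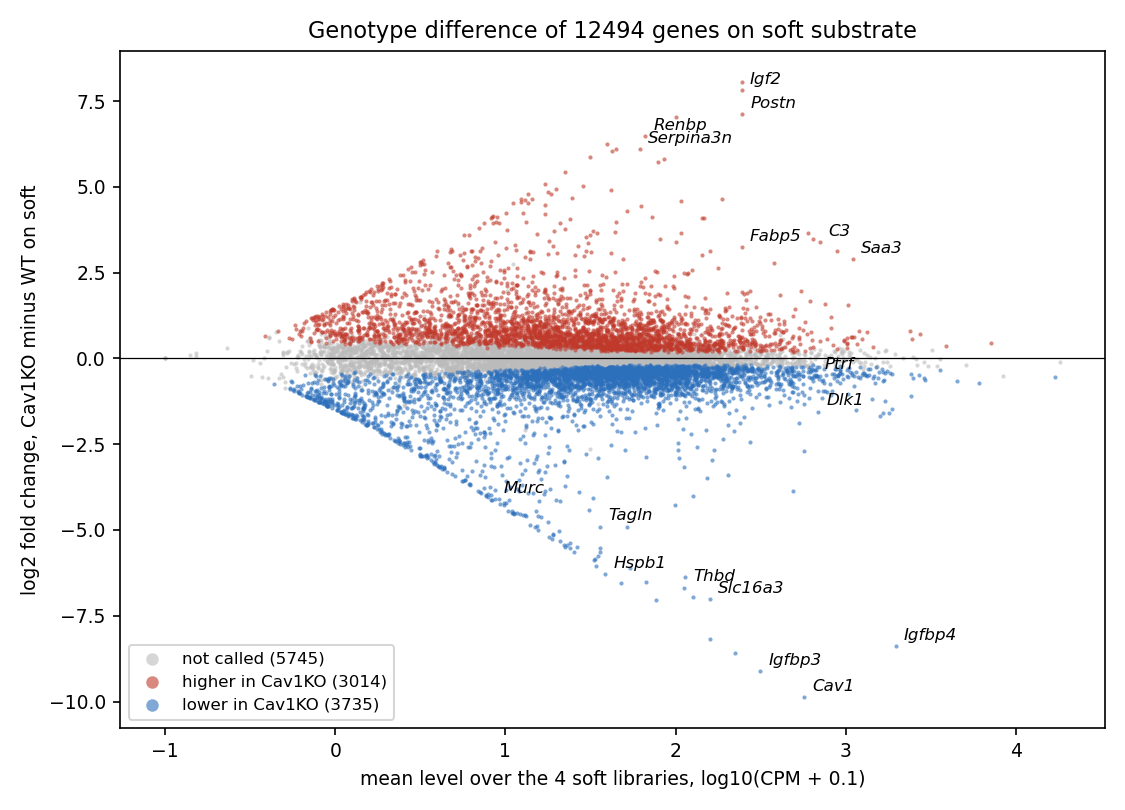
Log2 fold change (Cav1KO minus WT on soft, log2(CPM + 1) scale) of each of 12494 genes against its mean level over the 4 soft libraries, on a log10 axis of CPM + 0.1. Red points are the 3014 genes called higher in Cav1KO, blue points the 3735 called lower and grey points those not called, and Cav1, Igfbp3 and Igfbp4 are the lowest of the named points while Igf2 and Postn are the highest.

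Of the 15 largest rises, those described first encode secreted proteins, a fatty acid carrier and a transcription factor. Igf2, an insulin-like growth factor of fetal tissues, stood at 1.27 and 1.07 CPM in WT and 486 and 488 CPM in Cav1KO, a log2 fold change of 7.81 ± 0.17, adjusted p = 1.15e-08. Postn, which encodes the matricellular protein periostin, stood at 2.78 and 2.31 CPM in WT and 490.4 and 486 CPM in Cav1KO (7.11 ± 0.20, adjusted p = 4.44e-08). In both genes the 2 Cav1KO libraries lay within a few CPM of each other and far above both WT libraries. Serpina3n, a secreted inhibitor of serine proteases, stood at 1.09 and 0.537 CPM in WT and 119 and 125 CPM in Cav1KO (6.10 ± 0.20, adjusted p = 7.68e-08). Fabp4, a fatty acid carrier best known from adipocytes and macrophages, stood at 2.48 and 1.505 CPM in WT and 158 and 154 CPM in Cav1KO (5.74 ± 0.17, adjusted p = 5.63e-08). Mmp3, the metalloproteinase stromelysin-1, stood at 1.75 and 1.77 CPM in WT and 81.5 and 82.2 CPM in Cav1KO (4.91 ± 0.14, adjusted p = 4.98e-08). Epas1, which encodes the hypoxia-inducible factor subunit HIF-2alpha, stood at 0.242 and 0.484 CPM in WT and 36.2 and 36.4 CPM in Cav1KO (4.78 ± 0.21, adjusted p = 4.32e-07). The other 9 of the 15 largest rises were Renbp, Adam23, Nrxn2, Sdk1, Mpg, Lgi2, Nnmt, Akr1c13 and Vnn3, with log2 fold changes from 4.69 to 6.49; fitted values of genes with 3 reads or fewer in a genotype, here and below, depend on the pseudocount. Nrxn2, Sdk1 and Adam23 encode surface proteins that are best known from synapses and other cell contacts, and Nnmt methylates nicotinamide. Adam23 had 2 and 0 reads in WT, so that its ratio of 1390 (95% counting interval 385 to 11478) rests on 2 reads.

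The largest falls, after Cav1 itself (-9.87 ± 0.14, adjusted p = 2.51e-09), were in 2 binding proteins of the same growth factor system. Igfbp3, which carries insulin-like growth factors outside the cell, stood at 607 and 654 CPM in WT and 0 and 0.309 CPM in Cav1KO (-9.11 ± 0.13, adjusted p = 2.51e-09). Igfbp4, another such binding protein, stood at 4284 and 3566 CPM in WT and 9.83 and 11.6 CPM in Cav1KO (-8.39 ± 0.11, adjusted p = 2.51e-09). Igfbp3 had no read in the first Cav1KO library. Lack of overlap between genotypes was required of the 15 largest rises and falls, and 81.1% of all tested genes showed it. Slc16a3, the lactate exporter MCT4, stood at 313 and 319.8 CPM in WT and 1.67 and 1.23 CPM in Cav1KO (-7.02 ± 0.11, adjusted p = 2.51e-09). Thbd, the anticoagulant surface receptor thrombomodulin, stood at 212 and 237 CPM in WT and 1.15 and 1.23 CPM in Cav1KO (-6.68 ± 0.12, adjusted p = 5.26e-09). Hspb1, a small heat shock protein that binds actin and damaged proteins, stood at 76.2 and 78.3 CPM in WT and 0 and 0 CPM in Cav1KO, and with 0 reads in both Cav1KO libraries it was at least 497-fold lower, against a floor of 3 reads per library. Cdh2, which encodes N-cadherin, stood at 58.1 and 74.5 CPM in WT and 0.157 and 0.103 CPM in Cav1KO, a ratio of WT to Cav1KO of 511 (95% counting interval 219 to 1575) that rests on 5 reads. The other 8 of the 15 largest falls were Tubb2b, H2-T23, Gpr153, Pdlim4, Slc38a4, Tmem45a, Eva1b and S1pr3, with log2 fold changes from -7.05 to -5.84. Tubb2b shares 29.7% of its transcript windows of 60 nt with other listed genes and H2-T23 shares 6.49%, so their values are uncertain.

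**Figure D2:**
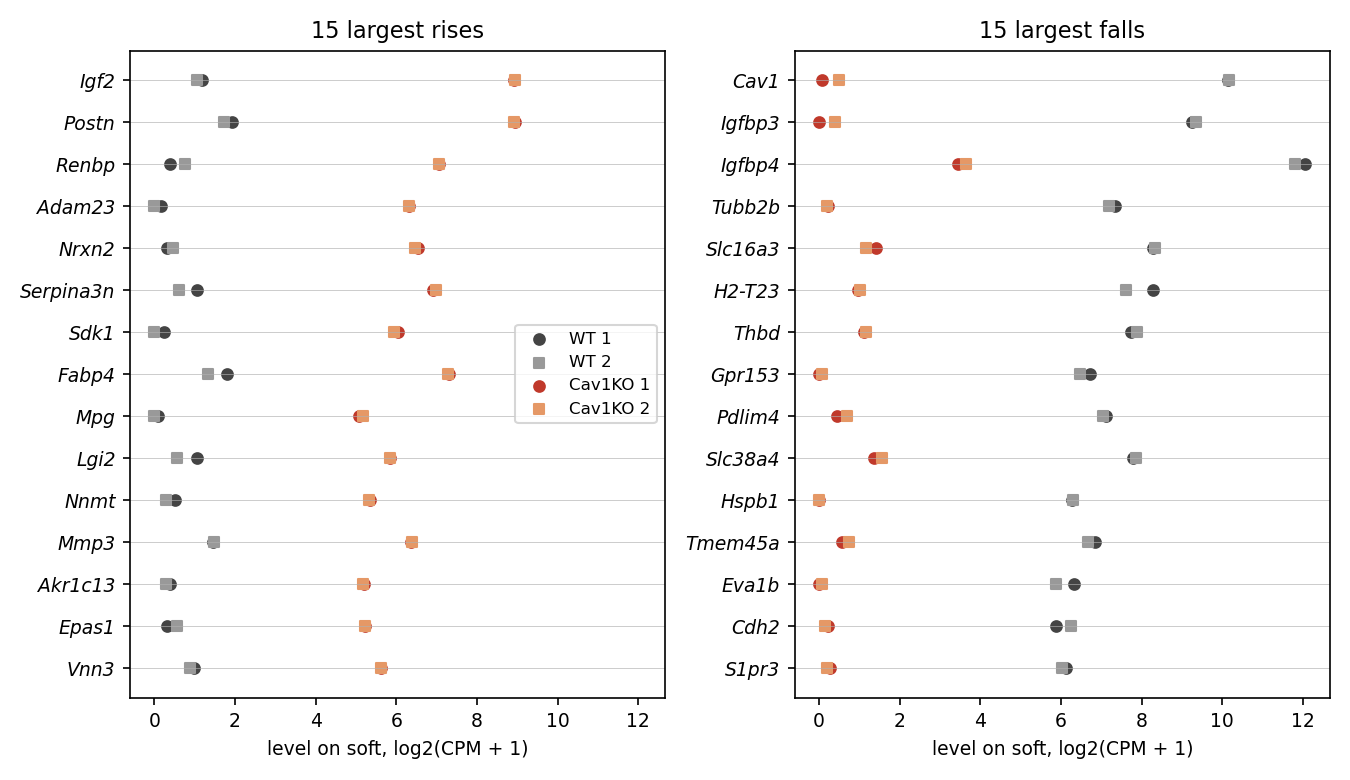
Level on soft, as log2(CPM + 1), of the 15 genes with the largest rise (left) and the 15 with the largest fall (right) in each of the 4 soft libraries, with WT in grey and Cav1KO in red and orange. In every row the 2 libraries of a genotype lie close together. The genotypes overlap in no row because this was required of the genes shown, and 81.1% of all tested genes had no overlap.

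Presence or near absence was common among the largest differences. Among genes with a mean of at least 5 CPM on soft, 115 were called with a log2 fold change of at least 4 in size, 43 of them higher and 72 lower. Of these, 56 had 3 reads or fewer in each library of 1 genotype. Pseudogenes made up 13 of the 115 (11.3%) against 314 of all tested genes (2.51%), and such genes are not named here because reads of near-identical copies could be split between them.

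Loss of Cav1 went with differences in most other caveola genes. Of 9 tested members of the caveola coat list, 6 were lower and 2 higher, against 54% called among all genes, with a median log2 fold change of -0.54. Cav1 itself, whose fall was set by the genotype, is included among the members, the lower genes and the median. Cav2, the partner of caveolin-1 in hetero-oligomers, stood at 102 and 98.9 CPM in WT and 44.3 and 47.9 CPM in Cav1KO (-1.10 ± 0.11, adjusted p = 7.43e-05). Murc, the muscle-type cavin also known as cavin-4, stood at 16.1 and 18.1 CPM in WT and 0.0523 and 0.0514 CPM in Cav1KO, 1 read in each Cav1KO library. Ptrf, which encodes cavin-1, stood at 719.8 and 859.8 CPM in WT and 552 and 560.2 CPM in Cav1KO (-0.50 ± 0.13, adjusted p = 0.0131), and this call was lost without WT soft 2 (-0.37, adjusted p = 0.0960), without Cav1KO soft 1 (adjusted p = 0.0683), without Cav1KO soft 2 (adjusted p = 0.0584) and under quantile normalization (-0.30, adjusted p = 0.115). Prkcdbp, or cavin-3, fell by 0.91 on the log2 scale (adjusted p = 3.13e-05) and Pacsin3, which bends membranes at the caveolar neck, by 0.54 (adjusted p = 0.00371). Sdpr, or cavin-2, stood at 18.7 and 22.9 CPM in WT and 46.3 and 44.0 CPM in Cav1KO (1.09 ± 0.18, adjusted p = 0.00107), and Pacsin2 rose by 0.55 (adjusted p = 0.00433). Ehd2, the ATPase that holds caveolae at the surface, stood at 278 and 268 CPM in WT and 289 and 280.4 CPM in Cav1KO and was not called (adjusted p = 0.508). Cav1 and Cav2 are neighbours on chromosome 6 (Cav1 at chr6:17306335-17341452, Cav2 at chr6:17281185-17289115, GRCm38). Of 10 tested genes that lie within 2 Mb of Cav1, itself included, 7 were called. Of these neighbours (chosen for their position, outside the naming rule), Tes fell by 1.03 on the log2 scale (adjusted p = 2.05e-05) and Met rose by 0.84 (adjusted p = 0.000896), while Capza2 differed by 0.13 (adjusted p = 0.178) and Mdfic by -0.14 (adjusted p = 0.190).

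YAP and TAZ pass on mechanical signals by binding TEAD factors, and the Hippo kinases and 14-3-3 proteins hold them in the cytosol. Of 26 tested genes of this machinery 9 were higher and 4 lower, against 24.1% higher and 29.9% lower of all genes (median 0.12, which was 0.18 under quantile normalization; without Cav1KO soft 1 the median was 0.05 and 4 were higher). Yap1 stood at 144 and 143 CPM in WT and 156 and 158 CPM in Cav1KO and was not called (adjusted p = 0.135), although quantile normalization called it (0.20, adjusted p = 0.0334). Wwtr1, which encodes TAZ, stood at 185 and 174 CPM in WT and 381 and 384 CPM in Cav1KO (1.09 ± 0.07, adjusted p = 3.79e-06). Tead4 stood at 11.96 and 13.4 CPM in WT and 5.49 and 7.10 CPM in Cav1KO (-0.92 ± 0.14, adjusted p = 0.000740), and Ywhah, the 14-3-3 protein eta, at 184 and 187 CPM in WT and 138 and 141 CPM in Cav1KO (-0.41 ± 0.07, adjusted p = 0.000943). Of 30 tested YAP target genes 15 were lower and 9 higher, with a median of -0.27, against 29.9% lower and 24.1% higher of all genes. Ankrd1 stood at 12.2 and 14.5 CPM in WT and 3.24 and 3.39 CPM in Cav1KO (-1.73 ± 0.13, adjusted p = 1.21e-05) and Ctgf at 7.43 and 8.71 CPM in WT and 4.60 and 3.50 CPM in Cav1KO (-0.85 ± 0.18, adjusted p = 0.00411). Cyr61 stood at 169 and 193 CPM in WT and 146 and 152 CPM in Cav1KO (-0.28 ± 0.10, adjusted p = 0.0376), a call that was lost under quantile normalization (-0.19, adjusted p = 0.134), with DESeq2 (adjusted p = 0.0501), without a mean-variance trend (adjusted p = 0.0743), and without Cav1KO soft 1 (adjusted p = 0.172), Cav1KO soft 2 (adjusted p = 0.101) or WT soft 2 (-0.18, adjusted p = 0.212). Msln, the surface protein mesothelin, stood at 30.6 and 27.2 CPM in WT and 2.30 and 1.75 CPM in Cav1KO (-3.31 ± 0.16, adjusted p = 8.86e-07), whereas Gli2, a transcription factor of the hedgehog pathway, stood at 1.03 and 1.93 CPM in WT and 29.9 and 28.2 CPM in Cav1KO (3.62 ± 0.25, adjusted p = 7.02e-06). The list therefore held large differences in both directions on soft.

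Among genes of the contractile apparatus, more were lower than higher. Of 51 tested actin and contractility genes 25 were lower, 14 higher and 12 not called, against 29.9% lower and 24.1% higher of all genes (median -0.21, which was -0.13 under quantile normalization and -0.01 without WT soft 2), and without WT soft 1, Cav1KO soft 1 or Cav1KO soft 2 the number higher was 8, 9 and 9. Tagln, which encodes the actin-binding protein transgelin, stood at 67.5 and 73.0 CPM in WT and 1.15 and 1.65 CPM in Cav1KO (-4.90 ± 0.15, adjusted p = 5.63e-08). Myl9, a myosin light chain, stood at 25.6 and 35.1 CPM in WT and 1.62 and 1.85 CPM in Cav1KO (-3.50 ± 0.17, adjusted p = 7.37e-07) and Actg2, the enteric smooth muscle actin, at 18.4 and 19.6 CPM in WT and 1.57 and 1.90 CPM in Cav1KO (-2.87 ± 0.13, adjusted p = 5.35e-07). Mylk, the kinase that phosphorylates myosin light chains, went the other way and stood at 1.15 and 0.537 CPM in WT and 13.9 and 11.8 CPM in Cav1KO (2.93 ± 0.19, adjusted p = 4.15e-06). Of 38 integrin and focal adhesion genes 17 were lower and 7 higher (median -0.16), against the same shares of all genes. The parvins, which link integrins to actin, split: Parva stood at 89.7 and 95.8 CPM in WT and 213 and 209 CPM in Cav1KO (1.18 ± 0.10, adjusted p = 2.63e-05) and Parvb at 30.6 and 39.1 CPM in WT and 14.7 and 14.9 CPM in Cav1KO (-1.17 ± 0.12, adjusted p = 8.30e-05). Of 30 cadherin and junction genes 14 were lower and 8 higher, and without Cav1KO soft 1 and WT soft 1 the number higher was 3 and 5. Beside Cdh2, Cdh3 (P-cadherin) stood at 17.2 and 22.4 CPM in WT and 0.105 and 0.103 CPM in Cav1KO and Cdh13 (T-cadherin) at 52.0 and 48.9 CPM in WT and 0 and 0.0514 CPM in Cav1KO, and Pvrl3, which encodes nectin-3, stood at 34.5 and 35.8 CPM in WT and 0.366 and 0.309 CPM in Cav1KO (-4.76 ± 0.13, adjusted p = 3.42e-08). In these 4 adhesion genes the highest Cav1KO level was 0.366 CPM and the lowest WT level 17.2 CPM.

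In the matrix, type IV collagen chains fell and several metalloproteinases rose. Of 37 tested collagen and collagen-processing genes 16 were lower and 7 higher, against 29.9% lower and 24.1% higher of all genes (median -0.26, which was -0.17 under quantile normalization and -0.15 without WT soft 2). Col4a1 and Col4a2, the chains of the main type IV collagen, which lie head to head on chromosome 8, stood at 18.1 and 27.4 CPM in WT and 0.889 and 1.08 CPM in Cav1KO (-3.55 ± 0.25, adjusted p = 7.46e-06) and at 25.4 and 30.7 CPM in WT and 0.889 and 0.926 CPM in Cav1KO (-3.92 ± 0.17, adjusted p = 4.34e-07). Col4a6 stood at 40.0 and 47.8 CPM in WT and 0 and 0.0514 CPM in Cav1KO, with 0 and 1 reads in Cav1KO. Loxl2, a lysyl oxidase-like enzyme that crosslinks type IV collagen, stood at 37.7 and 44.2 CPM in WT and 0.314 and 0.257 CPM in Cav1KO (-5.02 ± 0.14, adjusted p = 4.20e-08). Of 45 matrix glycoproteins and proteoglycans 16 were higher and 14 lower (9 lower without Cav1KO soft 2). Beside Postn, the laminin chain Lama1 was among those higher, at 0 and 0.0537 CPM in WT and 14.3 and 15.2 CPM in Cav1KO, whereas the proteoglycan Cspg4 (NG2) stood at 19.7 and 28.4 CPM in WT and 0 and 0.154 CPM in Cav1KO and the microfibril protein Mfap2 at 22.2 and 18.9 CPM in WT and 0.209 and 0.257 CPM in Cav1KO. Of 26 matrix proteases and inhibitors 14 were higher and 9 lower (median 0.33, which was 0.21 over members with a mean of at least 5 CPM; without Cav1KO soft 1, 9 were higher). Mmp13, a collagenase, stood at 3.87 and 2.31 CPM in WT and 32.2 and 32.5 CPM in Cav1KO (3.05 ± 0.21, adjusted p = 6.94e-06), and Mmp9, a gelatinase, at 2.48 and 1.88 CPM in WT and 24.3 and 23.2 CPM in Cav1KO (2.97 ± 0.16, adjusted p = 1.66e-06), while the membrane-bound Mmp16 stood at 20.1 and 18.2 CPM in WT and 0.732 and 0.669 CPM in Cav1KO (-3.57 ± 0.16, adjusted p = 4.53e-07).

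Complement and acute phase genes were the list with the highest share called in 1 direction. Complement proteins are secreted and mark surfaces for clearance, and acute phase proteins rise in inflammation; fibroblasts make several of both. Of 17 tested members 16 were higher and 0 lower, with a median log2 fold change of 1.90 against -0.03 over all genes, and 24.1% of all genes were called higher. The number lower was also 0 at an unadjusted p under 0.05 with limma, and 0 with edgeR and DESeq2. C3, the central complement component, stood at 98.4 and 148 CPM in WT and 1289 and 1275 CPM in Cav1KO (3.40 ± 0.29, adjusted p = 2.32e-05). Saa3, a serum amyloid A protein, stood at 293 and 229 CPM in WT and 1931 and 1939.6 CPM in Cav1KO (2.90 ± 0.12, adjusted p = 4.10e-07), Hp (haptoglobin) at 40.0 and 23.8 CPM in WT and 257 and 255 CPM in Cav1KO (3.01 ± 0.23, adjusted p = 1.17e-05) and Clu (clusterin) at 1.75 and 1.83 CPM in WT and 44.7 and 47.3 CPM in Cav1KO (4.07 ± 0.14, adjusted p = 1.37e-07). In all 4 genes both Cav1KO libraries were above both WT libraries. Such separation, in either direction, held for 81.1% of all tested genes on soft. The 2 macrophage markers given above were also higher in Cav1KO on soft. Cd14 rose by 1.29 on the log2 scale on soft and by 1.86 on stiff, and Cd68 by 1.02 on soft and 0.36 on stiff (not called). The part of these markers in the result for the complement list was not tested. Of 29 chemokine and cytokine genes, in contrast, 17 were lower and 7 higher (median -0.60), against 29.9% lower and 24.1% higher of all genes. Lif, a cytokine of the interleukin-6 family, stood at 28.1 and 35.0 CPM in WT and 4.18 and 4.53 CPM in Cav1KO (-2.60 ± 0.13, adjusted p = 9.63e-07) and Tnfrsf11b, the decoy receptor osteoprotegerin, at 171 and 181 CPM in WT and 29.4 and 32.2 CPM in Cav1KO (-2.48 ± 0.09, adjusted p = 1.71e-07). Il6 stood at 15.4 and 13.9 CPM in WT and 3.71 and 2.73 CPM in Cav1KO (-1.90 ± 0.15, adjusted p = 1.69e-05). Vcam1, an adhesion molecule for leukocytes, stood at 59.5 and 40.1 CPM in WT and 307 and 304 CPM in Cav1KO (2.62 ± 0.16, adjusted p = 3.99e-06) and Il33, an alarmin, at 0.725 and 0.645 CPM in WT and 15.7 and 17.4 CPM in Cav1KO (3.38 ± 0.14, adjusted p = 3.59e-07).

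The interferon-stimulated genes differed between the 2 WT soft libraries. Of 55 tested members 17 were lower and 10 higher, against 29.9% lower and 24.1% higher of all genes, with a median of -0.18 that turned to 0.14 without WT soft 1 and was -0.55 without WT soft 2. The number lower was 7 without WT soft 1, 10 without Cav1KO soft 1 and 9 without Cav1KO soft 2, and the number higher was 3 without Cav1KO soft 1, 4 without Cav1KO soft 2 and 2 without WT soft 2. Rsad2, which encodes the antiviral protein viperin, stood at 47.2 and 23.8 CPM in WT and 11.3 and 12.2 CPM in Cav1KO (-1.44 ± 0.28, adjusted p = 0.00249), and WT 1 exceeded WT 2 by about as much as WT 2 exceeded Cav1KO. Ifi27, a mitochondrial interferon-induced protein, was steadier at 173 and 186 CPM in WT and 79.7 and 80.5 CPM in Cav1KO (-1.15 ± 0.10, adjusted p = 2.80e-05). Of 22 genes of antigen presentation by MHC class I 7 were higher and 7 lower, and the number lower ranged from 4 without WT soft 1 or Cav1KO soft 2 to 12 without WT soft 2. The immunoproteasome subunit Psmb9 stood at 17.9 and 9.08 CPM in WT and 45.5 and 45.8 CPM in Cav1KO (1.75 ± 0.33, adjusted p = 0.00222).

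Glycolysis and hypoxia genes were the list with the highest share lower. HIF factors bind the core letters ACGTG in their targets, which include most glycolytic enzymes, the lactate exporter and genes of the hypoxia response. Of 32 tested members 25 were lower and 2 higher, with a median of -1.04, and 29.9% of all genes were called lower. Bnip3, a mitophagy receptor of the outer mitochondrial membrane, stood at 365 and 349 CPM in WT and 80.5 and 83.8 CPM in Cav1KO (-2.11 ± 0.10, adjusted p = 6.39e-07). Ero1l, an oxidase of the endoplasmic reticulum, stood at 109 and 105 CPM in WT and 25.5 and 25.3 CPM in Cav1KO (-2.03 ± 0.07, adjusted p = 1.63e-07). Pfkfb3, whose product raises the rate of glycolysis, went the other way and stood at 10.2 and 10.6 CPM in WT and 49.3 and 49.5 CPM in Cav1KO (2.14 ± 0.14, adjusted p = 4.99e-06). Together with Slc16a3 these are the 4 members with the largest differences. The sequence before the RefSeq start of each is shown because the list moved mostly one way while these 4 did not all move together. By GENCODE positions, the sequences of Slc16a3, Ero1l and Pfkfb3 lie within the gene and that of Bnip3 lies before it. ACGTG and its reverse complement CACGT are in capitals. Each line is a stretch of 120 bases that ends at or before the RefSeq start (GRCm38.p6), 5′ to 3′ on the gene's strand:

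Slc16a3 (chr11:120948947-120949066, plus strand): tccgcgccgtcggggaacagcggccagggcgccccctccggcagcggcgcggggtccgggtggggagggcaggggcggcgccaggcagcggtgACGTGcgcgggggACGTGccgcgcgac

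Bnip3 (chr7:138909554-138909673, minus strand): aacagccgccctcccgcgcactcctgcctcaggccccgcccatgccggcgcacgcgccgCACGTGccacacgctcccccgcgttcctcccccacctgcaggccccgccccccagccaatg

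Ero1l (chr14:45318576-45318695, minus strand): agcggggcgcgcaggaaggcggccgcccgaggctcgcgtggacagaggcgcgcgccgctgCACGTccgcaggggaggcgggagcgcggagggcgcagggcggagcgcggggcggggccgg

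Pfkfb3 (chr2:11553930-11554049, minus strand): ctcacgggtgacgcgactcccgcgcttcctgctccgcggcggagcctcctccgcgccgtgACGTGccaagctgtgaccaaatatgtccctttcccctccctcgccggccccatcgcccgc

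ACGTG, searched on both strands, was present in the promoter windows (250 bases before to 50 after the start) of 19 of 31 members with a RefSeq entry (61.3%) and of 19.7% of all 27025 promoters; this motif was chosen after the values were seen. In other lists it was in 12 of 26 lysosomal promoters (46.2%), 9 of 24 of AP-1 and immediate early genes (37.5%), 3 of 8 of caveola genes (37.5%) and 10 of 33 of ribosomal protein genes (30.3%), and in 1 of 10 of complement genes (10%). It is part of the E-box CACGTG, which 4 of the 31 held (12.9%) against 7.24% of all promoters. Pfkfb3, which rose, held the letters as did the 3 genes that fell. Of the motifs searched in every list with most members called one way, the TEAD letters GGAATG were in 2 of the 31 promoters (6.45%) against 14.6% of all. In the complement list they were in 3 of 10 (30%). A match is a description of the letters and not of binding, and promoters were not matched for base composition. The glycolysis and hypoxia list holds many HIF targets by its make-up, so a high share of ACGTG in it does not bear on the genotype difference. Promoters were searched for members called and not called alike.

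Cholesterol synthesis genes are targets of SREBP-2, and their genotype differences were not alike on the 2 substrates. Of 28 tested members 14 were lower, 5 higher and 9 not called on soft, against 29.9% lower and 24.1% higher of all genes (median -0.45; the number higher was 2 without Cav1KO soft 1, and 3 without Cav1KO soft 2 or WT soft 2), and 2 were lower and 17 higher on stiff (median 0.33), where 26.6% and 25% of all genes were. The difference between the genotype effects was itself called in 19 of the 28 as smaller on soft and in 0 as larger. Of all genes, 6% were called smaller and 4.47% larger. Here and below, smaller and larger refer to the signed log2 fold change. A gene that fell further on soft counts as smaller. The number larger was also 0 at an unadjusted p under 0.05 with limma and 0 with edgeR and DESeq2. The number smaller was 9 without Cav1KO soft 2, 10 without Cav1KO soft 1 and 11 without WT soft 1 or WT stiff 1, with medians of the difference from -0.80 to -0.65 in all alternatives. Idi1, which isomerizes isopentenyl diphosphate, stood at 103 and 101 CPM in WT and 48.5 and 51.8 CPM in Cav1KO on soft (-1.01 ± 0.11, adjusted p = 8.92e-05) and at 71.0 and 81.7 CPM in WT and 146 and 177 CPM in Cav1KO on stiff. Its difference on soft minus that on stiff was -2.08 ± 0.15, adjusted p = 0.00131, but Idi1 shares 17.3% of its windows with other listed genes and is uncertain. Msmo1, a sterol C4 oxidase, stood at 98.6 and 102 CPM in WT and 50.1 and 52.2 CPM in Cav1KO on soft (-0.96 ± 0.13, adjusted p = 0.000294) and at 69.1 and 86.8 CPM in WT and 106 and 129.9 CPM in Cav1KO on stiff (difference -1.55 ± 0.18, adjusted p = 0.00438). Fdps, the farnesyl diphosphate synthase, stood at 116 and 112 CPM in WT and 44.2 and 46.1 CPM in Cav1KO on soft (-1.32 ± 0.11, adjusted p = 2.05e-05) and at 86.2 and 97.8 CPM in WT and 77.6 and 95.9 CPM in Cav1KO on stiff (difference -1.23 ± 0.15, adjusted p = 0.00571). In WT these 2 genes were higher on soft than on stiff, and in Cav1KO they were lower.

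Genes of the ATF4 and endoplasmic reticulum stress response also differed between substrates. Of 36 tested members 17 were lower and 6 higher on soft, against the shares of all genes given above (median -0.25, which was -0.12 under quantile normalization), 5 were lower and 15 higher on stiff (median 0.17), and the difference was called smaller on soft in 17 and larger in 0 (also 0 at an unadjusted p under 0.05 with limma, and with edgeR and DESeq2). The number smaller was 1 without Cav1KO soft 1, 3 without Cav1KO soft 2, 6 without WT stiff 1, 9 without WT soft 2, 10 without WT soft 1 and 11 without a mean-variance trend, while the median of the difference stayed between -0.51 and -0.41. Slc7a11, the cystine importer that feeds glutathione synthesis, stood at 36.6 and 42.7 CPM in WT and 5.91 and 5.97 CPM in Cav1KO on soft (-2.55 ± 0.13, adjusted p = 9.63e-07) and at 36.5 and 30.1 CPM in WT and 12.8 and 12.6 CPM in Cav1KO on stiff (difference -1.23 ± 0.18, adjusted p = 0.00953; adjusted p = 0.0602 without Cav1KO soft 1 and 0.0583 without Cav1KO soft 2). Atf3 stood at 21.9 and 23.8 CPM in WT and 5.02 and 6.48 CPM in Cav1KO on soft (-1.83 ± 0.22, adjusted p = 0.000183) and at 3.62 and 2.85 CPM in WT and 3.71 and 2.03 CPM in Cav1KO on stiff (difference -1.67 ± 0.31, adjusted p = 0.0221), and this call was lost without any 1 of the 4 soft libraries or WT stiff 1 (adjusted p from 0.0643 to 0.110). Phgdh, which starts serine synthesis, fell by 1.04 on the log2 scale on soft (adjusted p = 1.23e-05). Chemokine and cytokine genes were called smaller on soft in 10 of 29 (5 without Cav1KO soft 1 or Cav1KO soft 2). Among these, Il6, which stood at 5.17 and 5.81 CPM in WT and 9.83 and 9.15 CPM in Cav1KO on stiff, had the difference -2.59 ± 0.22, adjusted p = 0.00161. Of all genes, 6% were called smaller on soft.

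**Figure D3:**
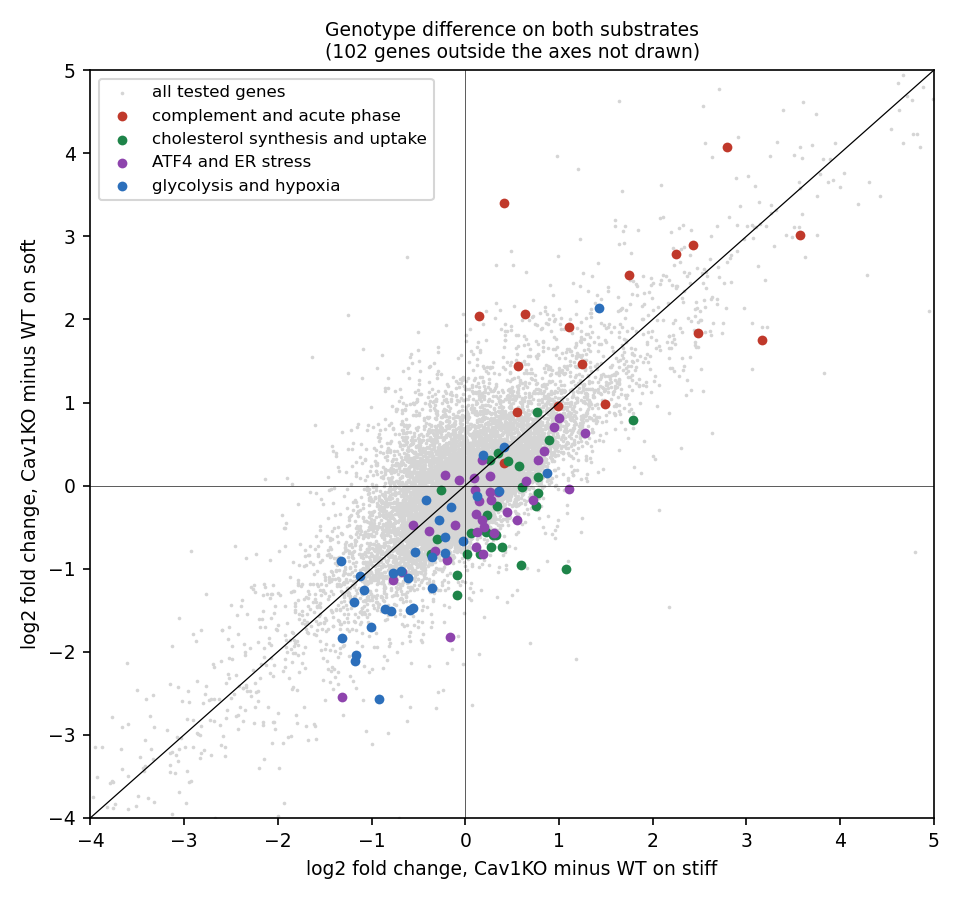
Log2 fold change (Cav1KO minus WT, log2(CPM + 1) scale) on soft against that on stiff, with the line of equality. Grey points are all tested genes apart from 102 that lie outside the axes; green points (cholesterol genes) and purple points (ATF4 and endoplasmic reticulum stress genes) lie mostly below the line, most red points (complement and acute phase genes) lie in the upper right and most blue points (glycolysis and hypoxia genes) in the lower left.

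Over all genes the genotype difference was largely shared between substrates. Of the 6749 genes called on soft 5895 (87.3%) had the same sign on stiff, against 73.6% of all tested genes. On stiff, 3127 genes were higher (25%) and 3329 lower (26.6%), 51.7% in all. Of these, 1956 were higher on both substrates (64.9% of those higher on soft and 62.6% of those higher on stiff) and 2357 were lower on both (63.1% and 70.8%), while 60 were higher on soft and lower on stiff and 49 the reverse. Both comparisons used the same 2 lines, and across genes, which are not independent replicates, the fold changes correlated with r = 0.842. The difference between substrates was called in 1309 genes (10.5%). Of those also called on soft and with the same sign on stiff, 440 differed more in size on soft and 189 less. A call on soft, which was required here, favours genes with a larger difference on soft. These 440 and 189 genes therefore do not show on which substrate the genotype difference is larger. By the signed value, the difference was larger on soft in 559 genes (4.47%) and smaller in 750 (6%). These counts depended on single libraries: without WT stiff 1 they were 62 and 103, without Cav1KO soft 1 36 and 74, without Cav1KO soft 2 40 and 79, without WT soft 1 96 and 130, without WT soft 2 144 and 244, without Cav1KO stiff 2 162 and 215, and without Cav1KO stiff 1 1747 and 1689. On the log2(CPM + 1) scale Serpina3n had the largest positive difference between substrates (3.69 ± 0.28, adjusted p = 0.00131), where Cav1KO stood at 119 and 125 CPM on soft and at 5.18 and 3.56 CPM on stiff. WT had 0 reads of it on stiff, and on the scale of counts, where such a gene has no finite fold, edgeR gave -2.07 (adjusted p = 0.376), so that the direction depends on the scale. C3 (2.98 ± 0.41, adjusted p = 0.00752) was called by these tools as well. Cyp2f2, a cytochrome P450, had a difference of 2.99 ± 0.23, adjusted p = 0.00131 with limma and an adjusted p of 0.280 with edgeR. Penk, which encodes the opioid precursor proenkephalin, stood at 53.5 and 35.8 CPM in WT and 0 and 0 CPM in Cav1KO on soft and at 4.27 and 5.59 CPM in WT and 0 and 0.0548 CPM in Cav1KO on stiff (difference -2.96 ± 0.29, adjusted p = 0.00254 with limma; adjusted p = 0.218 with edgeR).

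Genes of identity and position differed in both directions, many of them between presence and near absence. Of 51 tested HOX and body-axis genes 23 were lower and 18 higher, against 29.9% lower and 24.1% higher of all genes. Hoxa10 stood at 17.0 and 18.9 CPM in WT and 0.0523 and 0.154 CPM in Cav1KO, En1 at 14.3 and 16.0 CPM in WT and 0 and 0.0514 CPM in Cav1KO and Zic1 at 42.7 and 41.0 CPM in WT and 0 and 0.154 CPM in Cav1KO. These 3 transcription factors pattern the limb or the neural tube, and none had more than 3 reads in a Cav1KO soft library. Of 13 imprinted genes 5 were higher and 5 lower. Beside Igf2, Peg3 stood at 0.121 and 0.0537 CPM in WT and 28.4 and 23.2 CPM in Cav1KO, whereas Snrpn stood at 15.3 and 16.4 CPM in WT and 0.418 and 0.103 CPM in Cav1KO (-3.75 ± 0.18, adjusted p = 7.08e-07) and Dlk1, a ligand-like inhibitor of Notch signalling and of fat cell differentiation, at 954 and 1091 CPM in WT and 335 and 361 CPM in Cav1KO (-1.55 ± 0.16, adjusted p = 6.87e-05). Of 30 Wnt genes 15 were higher and 11 lower (median 0.35). The ligands Wnt4 and Wnt10a stood at 2.05 and 1.67 CPM in WT and 35.7 and 37.6 CPM in Cav1KO (3.72 ± 0.13, adjusted p = 1.41e-07) and at 0 and 0 CPM in WT and 16.7 and 16.0 CPM in Cav1KO. With 0 reads in both WT libraries Wnt10a was at least 95.7-fold higher. The antagonists Dkk3 and Notum stood at 75.6 and 67.7 CPM in WT and 0.471 and 0.463 CPM in Cav1KO (-5.63 ± 0.15, adjusted p = 3.01e-08) and at 70.7 and 76.0 CPM in WT and 5.44 and 6.12 CPM in Cav1KO (-3.46 ± 0.14, adjusted p = 2.69e-07). Of 30 TGF-beta and BMP genes 17 were lower and 8 higher (median -0.38). Bmp4 stood at 1.33 and 1.02 CPM in WT and 16.6 and 16.7 CPM in Cav1KO (3.02 ± 0.19, adjusted p = 3.68e-06), while 2 secreted antagonists of the family were lower: Nbl1 at 131 and 106 CPM in WT and 14.7 and 15.6 CPM in Cav1KO (-2.88 ± 0.15, adjusted p = 1.25e-06) and Fstl3 at 15.4 and 15.7 CPM in WT and 0 and 0 CPM in Cav1KO. Of 46 growth factor and receptor genes 22 were higher and 20 lower.

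Of 45 tested ribosomal protein genes 30 were lower, 3 higher and 12 not called, against 29.9% lower and 24.1% higher of all genes, with a median of -0.43 (-0.26 under quantile normalization). Without WT soft 1, 19 were lower. Rps6 stood at 1013 and 1008 CPM in WT and 582 and 615 CPM in Cav1KO and Rpl30 at 734 and 727 CPM in WT and 397 and 352 CPM in Cav1KO (-0.97 ± 0.08, adjusted p = 2.18e-05). Rpl34 and Rpl13 went the other way, at 395 and 356 CPM in WT and 1096 and 1159 CPM in Cav1KO (1.58 ± 0.11, adjusted p = 7.51e-06) and at 869 and 863 CPM in WT and 1467 and 1562 CPM in Cav1KO (0.80 ± 0.08, adjusted p = 6.65e-05). Rps6 and Rpl13 share 43.2% and 21.8% of their windows with other listed genes and are uncertain. Of 32 AP-1 and immediate early genes 18 were lower and 7 higher (median -0.70), among them the phosphatase Dusp1 at 81.0 and 67.8 CPM in WT and 16.4 and 16.3 CPM in Cav1KO (-2.11 ± 0.13, adjusted p = 2.82e-06) and Klf6 at 186 and 170.1 CPM in WT and 53.6 and 52.1 CPM in Cav1KO (-1.73 ± 0.07, adjusted p = 4.05e-07). Of 34 lysosomal genes 18 were higher and 6 lower (median 0.40; 3 were lower without WT soft 1). The acid lipase Lipa stood at 157 and 126 CPM in WT and 317 and 318 CPM in Cav1KO (1.17 ± 0.12, adjusted p = 5.91e-05). The E-box CACGTG, which TFEB binds, was in 8 of 26 lysosomal promoters (30.8%), of members called and not called alike, against 7.24% of all. This motif was not among those planned, and a part of TFEB in these differences was not tested. Of 29 fatty acid and lipid droplet genes 9 were higher and 9 lower, with Fabp5 at 45.1 and 47.2 CPM in WT and 442 and 443 CPM in Cav1KO (3.23 ± 0.08, adjusted p = 2.34e-08) and the desaturase Scd1 at 247 and 246 CPM in WT and 95.9 and 97.8 CPM in Cav1KO (-1.34 ± 0.06, adjusted p = 8.38e-07). Of 31 glutathione and NRF2 target genes 13 were lower and 4 higher, and Gpx7, a peroxidase of the endoplasmic reticulum, stood at 25.01 and 18.6 CPM in WT and 0 and 0 CPM in Cav1KO. Of 44 respiratory chain genes 15 were higher and 8 lower (median 0.12, which was 0.19 under quantile normalization and 0.01 without WT soft 2); without Cav1KO soft 1 these were 6 and 3, without Cav1KO soft 2 6 and 4, and without WT soft 2 8 and 4, and without WT soft 1 3 were lower.

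Lists of cell cycle genes had more members lower than higher, as had all genes, of which 29.9% were lower and 24.1% higher. For mitosis genes the share lower was close to that of all genes, and 20 of 35 were not called. Of 39 DNA replication genes 15 were lower and 7 higher (median -0.18, which was -0.29 without WT soft 1 and -0.01 without WT soft 2), and without 1 library the number lower fell to 6 (without Cav1KO soft 1) or 7 (without WT soft 2) and the number higher to 2 (without WT soft 1) or 3 (without Cav1KO soft 1 or 2). Of 35 mitosis genes 11 were lower and 4 higher (median -0.15, which was -0.33 without WT soft 1 and -0.03 without WT soft 2), and the number higher was 0 without WT soft 1, 1 without Cav1KO soft 1, 2 without Cav1KO soft 2 and 8 without WT soft 2. Cdc20, which activates the anaphase-promoting complex, stood at 204 and 256 CPM in WT and 113 and 114 CPM in Cav1KO (-1.004 ± 0.10, adjusted p = 6.25e-05). Of 29 cyclin D, CDK inhibitor and p53 target genes 14 were lower and 4 higher (median -0.29). Cdkn1a, the CDK inhibitor p21, stood at 15.2 and 16.0 CPM in WT and 1.83 and 1.44 CPM in Cav1KO on soft (-2.66 ± 0.15, adjusted p = 2.08e-06) and at 7.08 and 6.44 CPM in WT and 4.65 and 3.73 CPM in Cav1KO on stiff (difference -2.07 ± 0.21, adjusted p = 0.00286), and Cdkn2b, the CDK inhibitor p15, at 59.3 and 50.9 CPM in WT and 16.7 and 16.6 CPM in Cav1KO on soft (-1.67 ± 0.12, adjusted p = 1.15e-05). Mki67, the proliferation marker Ki-67, stood at 3.44 and 9.46 CPM in WT and 21.96 and 18.7 CPM in Cav1KO (1.64 ± 0.45, adjusted p = 0.0137) with WT libraries that lay far apart. Its call was lost without WT soft 1 (1.02, adjusted p = 0.105) and without Cav1KO soft 1 (1.53, adjusted p = 0.0731).

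**Figure D4:**
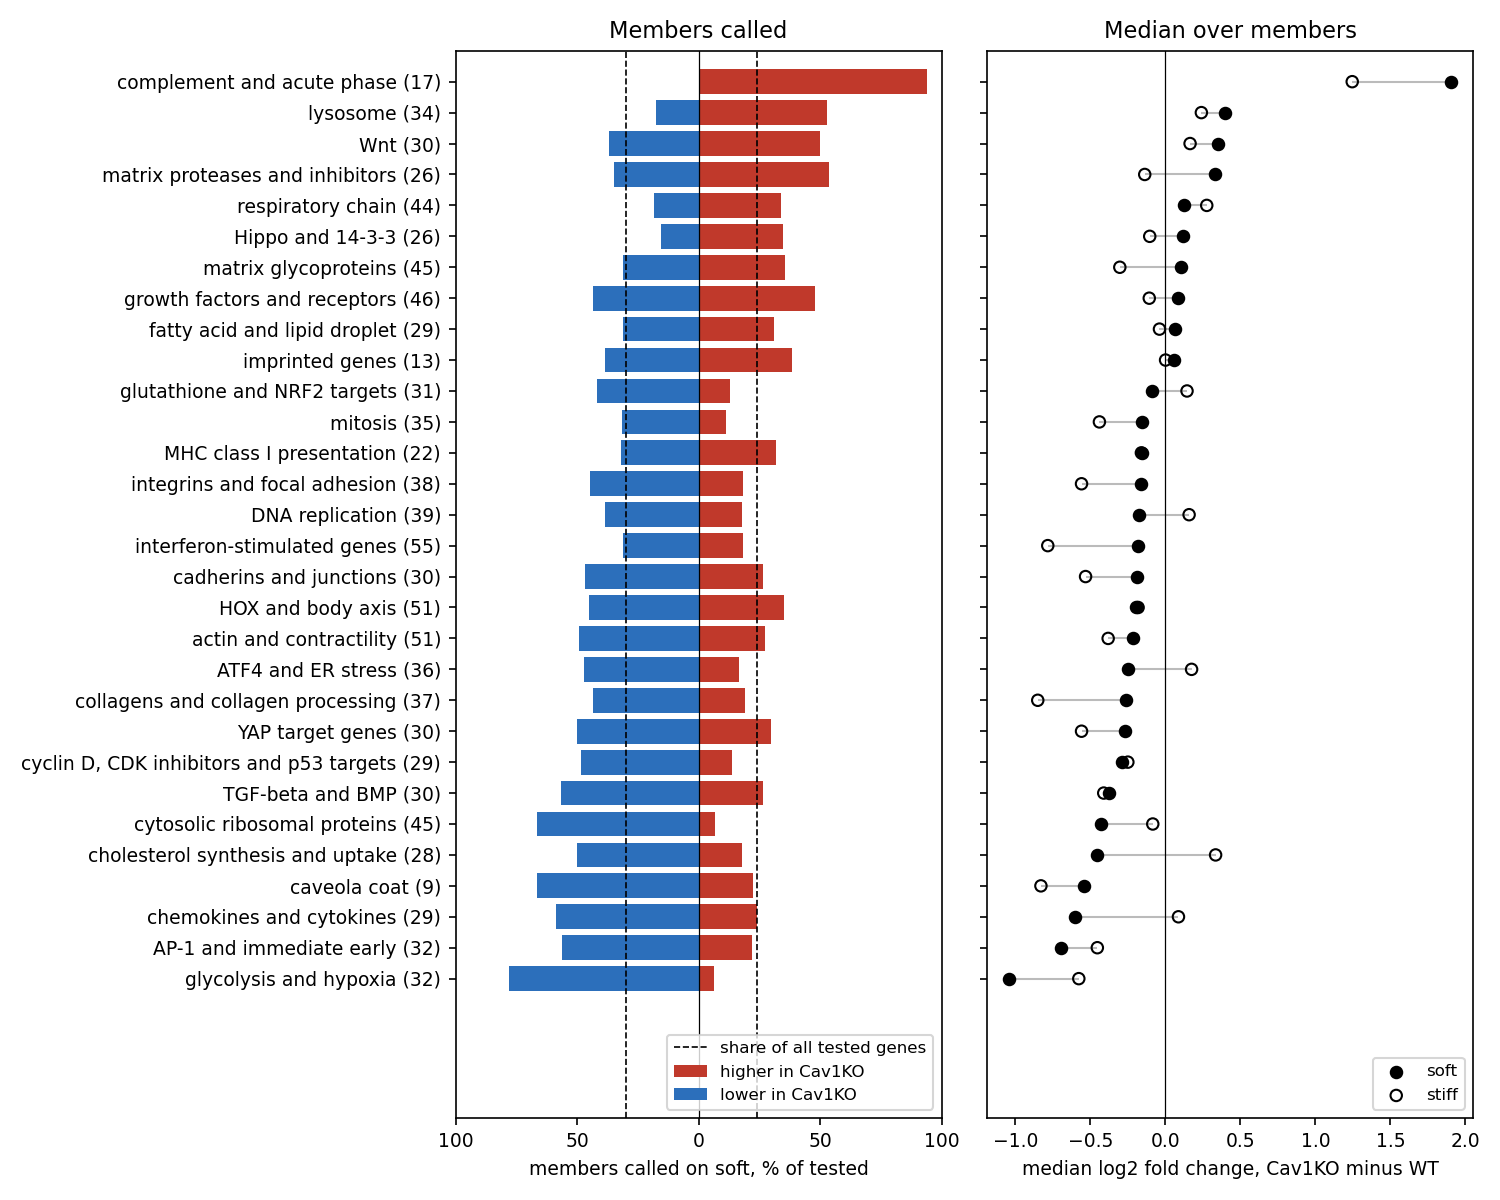
Left, the share of tested members of each of 30 gene lists that was called higher (red) or lower (blue) in Cav1KO on soft, with dashed lines at the shares of all tested genes (24.1% and 29.9%) and the number tested in brackets. Right, the median log2 fold change over the tested members on soft (filled) and stiff (open), with complement and acute phase genes highest on soft at 1.90 and glycolysis and hypoxia genes lowest at -1.04.

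Long transcripts were shifted relative to short ones on soft. Over 677 genes with an exonic length of at least 12000 nt the median log2 fold change was 0.31, and 38.1% were higher and 12.7% lower. Over 550 genes under 1000 nt the median was -0.16, and 16.7% were higher and 29.1% lower. The medians rose with each of the 7 length classes. On stiff the median was 0.06 in the shortest class, 0.09 in the next and lower in each class after it, down to -0.27. The difference on soft minus that on stiff had a median of -0.23 in the shortest class and -0.25 in the next. It was higher in each class after that, up to 0.52 in the longest. The part of length in the results between substrates, for lists as for single genes, was not tested. Replicates also differed by length: in the longest class, WT soft 1 minus WT soft 2 had a median of -0.13 and Cav1KO soft 1 minus Cav1KO soft 2 of 0.07, both smaller than the genotype difference. Length was examined after the values were seen, and its part in the results for long genes such as Mki67 and Ahnak2 (2.61 ± 0.43, adjusted p = 0.0144 between substrates, with adjusted p from 0.0623 to 0.0855 without Cav1KO soft 1, Cav1KO soft 2, WT soft 1 or WT stiff 1) and for short ones such as ribosomal protein genes was not tested.

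Neighbouring genes tended to differ in the same direction. This was looked at by chromosome and in stretches of 20 Mb after the values were seen, and it is given without a test. On chromosome 4, 410 of 790 genes were lower (51.9%) and 81 higher (10.3%), with a median of -0.39, whereas on chromosome 15, 230 of 486 were higher (47.3%) and 71 lower (14.6%), with a median of 0.27. On stiff the medians of these chromosomes were -0.32 and 0.28. Over 138 stretches of 20 Mb with at least 20 tested genes the median ranged from -0.65 to 1.13, lay above 0.3 in 13 and below -0.3 in 16, and had the same sign on stiff in 125. Both readings come from the same lines, and across stretches, which hold different genes of the same libraries, the medians correlated with r = 0.932.

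The highest stretch was the end of chromosome 8. From 120 Mb on (first gene at position 120080890, last gene ending at 129234406, GRCm38), the 84 tested genes had a median log2 fold change of 1.13, with quartiles of 0.83 and 1.46, and the median on stiff was 1.08. They include genes with no shared role. Itgb1, the integrin beta 1 chain, stood at 271 and 285 CPM in WT and 595 and 587 CPM in Cav1KO. Cox4i1, a subunit of cytochrome c oxidase, stood at 310.0 and 273 CPM in WT and 664 and 706 CPM in Cav1KO (1.23 ± 0.11, adjusted p = 2.56e-05), Gins2, a part of the replicative helicase, at 21.0 and 23.8 CPM in WT and 48.9 and 49.8 CPM in Cav1KO (1.11 ± 0.11, adjusted p = 6.38e-05), and Rpl13 lies there too. Each of these 4 genes went against the median of its list or stood out within it: integrin, replication and ribosomal protein genes had negative medians and respiratory chain genes a median of 0.12. Foxf1 and Foxc2, neighbouring transcription factor genes in this stretch, moved in opposite directions, with log2 fold changes of 2.51 and -3.17. Itgb1, Foxf1 and Foxc2 are named for their position, outside the naming rule.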

How the data were processed

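Polyadenylated RNA of 8 mouse libraries (4 groups by genotype and substrate, 2 libraries each) had been sequenced as single reads of 60 nt. The deposited values are a signal per gene: CPM that the authors scaled by TMM factors, for 12528 genes. The submitters' processing notes name CASAVA 1.8.2, cutadapt, RSEM 1.2.3 and the build GRCm38, without roles, and how the authors filtered genes and which test they used are not given in the sources used here. Within each library the values are whole multiples of 1 read (100% of values, within a tolerance of 0.01), so reads could be recovered; since RSEM gives estimated counts and the sources used here do not say whether these were rounded, the recovered reads behind the counting tests, floors and intervals may be rounded estimates. There were 17089836 to 19944952 per library, which sets the counting error, and 0 reads allow up to 3.

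The 12494 genes that reached 1 CPM in 2 or more of the 8 libraries were tested with limma 3.58.1 (R 4.3.3) on log2(CPM + 1), with 4 group means, a mean-variance trend and Benjamini-Hochberg adjustment over all of them; the threshold was an adjusted p under 0.05. Since the values are not raw counts, edgeR 4.0.16 and DESeq2 1.42.0 on the recovered reads served as alternatives, beside other pseudocounts, filters, scalings, a replicate block and leaving out each library. The scripts were tested on simulated data. Counting intervals and floors cover counting error only.

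The comparison and the gene lists were chosen with earlier results of these data known. Genes were named by rule: the 15 largest called rises and falls on soft and the 5 largest called differences between substrates in each direction, with a mean of at least 5 CPM (rises and falls also without overlap of genotypes); the 4 called members of each list with the largest differences; and the caveola coat genes, sex-linked genes, Ctgf, Cyr61, Ankrd1, Yap1, Wwtr1 and Ywhah. Genes without a symbol, predicted genes and pseudogenes were left out of the first of these, which concerned 237 called genes. Positions come from GENCODE M21 (GRCm38; 99.5% of identifiers matched) and promoters from RefSeq. Genes that share 60-nt windows with other listed genes are given as uncertain, and the library kit does not mark strand, so that reads of overlapping genes cannot be told apart. Length and position along chromosomes, for which alternatives were added, were examined after seeing the data.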

Additional observations from a re-analysis of the deposited data

Results flagged for a closer look

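The genotype difference on soft differed from that on stiff by a test of the difference itself (limma with Benjamini-Hochberg adjustment) in 559 genes as larger and in 750 as smaller, and 45 of the genes named above are among these. Each value in brackets is the log2 fold change on soft minus that on stiff; a negative value also arises where a gene that fell in Cav1KO fell further on soft. The genes divide by whether the call was also made on the recovered reads with edgeR, which was so for 19, and by whether it held without each library in turn.

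Of those called by edgeR as well, 8 held without each of the 8 libraries: C3 (2.98), Mmp9 (1.74), Ero1l (-0.87), Fdps (-1.23), Msmo1 (-1.55), Cdkn1a (-2.07), Idi1 (-2.08) and Il6 (-2.59). C3 had log2 fold changes of 3.40 on soft and 0.41 on stiff, while the sterol enzymes Idi1 and Msmo1 and the cytokine Il6 had opposite signs on the substrates. The other 11, Mki67 (2.73), Ahnak2 (2.61), Met (1.38), Clu (1.28), Cyr61 (0.63), Parva (0.61), Scd1 (-0.45), Mmp3 (-0.90), Bnip3 (-0.93), Slc7a11 (-1.23) and Atf3 (-1.67), lost the limma call without at least 1 library. Mki67, Ahnak2 and Met were higher in Cav1KO on soft and lower on stiff by their fitted values. For Mmp3 the difference was called by edgeR as -3.90 (adjusted p = 0.00845) and took the other sign at a pseudocount of 5.

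The other 26 of the 45 were not called by edgeR. In 20 of these its estimate had the same sign: Cyp2f2 (2.99), Epas1 (2.07), Sdk1 (1.89), Postn (1.57), Gli2 (1.53), Mylk (1.23), Nrxn2 (1.08), Actg2 (0.72), Fabp5 (0.42), Cd14 (-0.57), Cdkn2b (-0.66), Igfbp3 (-0.76), Tmem45a (-0.93), Eva1b (-0.96), Murc (-1.10), Cdh13 (-1.16), Gpr153 (-1.29), Mfap2 (-1.56), Col4a6 (-1.65) and Penk (-2.96). In the other 6, Serpina3n (3.69), Adam23 (1.63), Igf2 (1.23), Peg3 (1.01), Dkk3 (-0.89) and H2-T23 (-1.48), the estimate on reads had the opposite sign, as it had with DESeq2, and the direction between substrates depends on the scale for them. DESeq2 called 23 of the 45.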

How the results depend on the processing

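On soft, 3014 genes were higher and 3735 lower in Cav1KO, and both numbers stayed within 1.5 times under every alternative except a minimum fold: they were 995 and 956 at a change of at least 2-fold, which by its construction leaves fewer genes. Without 1 library they ranged from 2079 to 3279 and from 2747 to 3908. The genes whose difference was larger or smaller on soft than on stiff (559 and 750) were 297 and 174 at a change of at least 2-fold, 314 and 391 without a mean-variance trend, 361 larger with edgeR, and ranged from 36 to 1747 and from 74 to 1689 without 1 library. Genes called on soft with the same sign on stiff were 1838 at a change of at least 2-fold. The cause of these changes was not tested beyond the minimum fold.

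A replicate block gave 3019 and 3743 genes on soft and 569 and 755 for the difference between substrates. The labels do not say whether the replicate numbers pair the libraries. Deviations of same-numbered libraries from their group means correlated between -0.37 and 0.42 across the 6 pairs of groups. The value was 0.42 between Cav1KO stiff and WT stiff and -0.04 between Cav1KO soft and WT soft. Whether same-numbered libraries of a substrate share a batch was not tested.

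Of the 129 named genes, 14 lost their call in at least 1 alternative (13 of them at the minimum fold) and 2 gained one, and none changed direction on soft. The sign of a list's median turned for interferon-stimulated genes and MHC class I genes without WT soft 1 (0.14 and 0.15), growth factors (-0.01) and neural markers (0.14) without WT soft 2, imprinted genes without Cav1KO soft 1 (-0.07), and cadherins (0.06) and adipocyte markers (5.74, 1 member) at a mean of at least 5 CPM. The medians of chromosome 8 from 120 Mb on ranged from 0.93 to 1.23, of chromosome 4 from -0.42 to -0.30, of chromosome 15 from 0.23 to 0.34 and of genes of at least 12000 nt from 0.25 to 0.38. With 2 libraries per group, spread is estimated from 4 degrees of freedom, and below about 3 reads per library a gene's fold change depends on the pseudocount.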

Other observations

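Marker genes of other mesenchymal lineages were few among the listed genes. Of 15 fibroblast and mesenchyme markers 12 were tested, of which 6 were higher and 3 lower in Cav1KO on soft (median log2 fold change 0.20), while on stiff 3 were higher and 7 lower (median -0.36). Of all tested genes, 24.1% were higher and 29.9% lower on soft, and 25% were higher and 26.6% lower on stiff. Of 9 chondrocyte and osteoblast markers 5 were tested, with 2 higher and 3 lower on soft, and of 7 adipocyte markers 3 were tested, with 1 higher and 2 lower. Of 10 neural and glial markers 4 were tested, with 2 in each direction, and of 15 skeletal muscle markers 1 was tested and was higher.

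Several lists had other medians on soft than on stiff, and these differences between list medians were not tested. Interferon-stimulated genes had a median of -0.18 on soft and -0.78 on stiff, where 33 of 55 were lower and 2 higher. Mitosis genes had a median of -0.15 on soft and -0.44 on stiff, where 22 of 35 were lower and 1 higher. Collagen genes had a median of -0.26 on soft and -0.85 on stiff, where 27 of 37 were lower and 2 higher. DNA replication genes had a median of -0.18 on soft and 0.16 on stiff, where 4 of 39 were lower and 11 higher. On stiff 25% of all genes were called higher and 26.6% lower.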
